A study of Mus musculus with 9 samples.

Results

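Pericytes and vascular smooth muscle cells, together called mural cells, wrap the endothelial tubes of blood vessels, and 9 genes that mark them were followed here in mouse calf muscle. They were taken by symbol from the gene count table: Acta2, Myh11, Tagln, Cnn1 and Mylk of the smooth muscle contractile apparatus, and Rgs5, Pdgfrb, Cspg4 and Notch3 of pericytes. All 9 were found among 35275 genes listed, and all 9 passed the count filter, as did 13901 genes in total. The tissue was gastrocnemius of female NSG mice at week 12, an immunodeficient strain without mature lymphocytes whose genotype is labelled wild type, and messenger RNA was selected by its poly-A tail from pieces near 20 mg. Extracellular vesicles (EVs), small membrane packets shed by cells, were injected into the tail vein in doses near 10 µg, 2 a week over 5 weeks and 10 in total, and the muscle was collected 2 days later. In 4 libraries (MCF-10A EV) the donor of the vesicles was MCF-10A, a non-tumorigenic human mammary epithelial line. In the other 5 (MDA-MB-231 EV) it was the human breast tumour line MDA-MB-231, called the cancer line here. Both groups got vesicles, and mice without them were not analysed here.

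Mural cells regulate vessel diameter, and in muscle they sit on the arterioles that feed the fibres and on the capillaries between them. Contraction of smooth muscle begins when calcium and calmodulin activate myosin light chain kinase, which lets smooth muscle myosin pull on smooth muscle actin. The contractile genes are driven by serum response factor with its coactivators of the myocardin family, through a short DNA element called the CArG box. Pericytes are recruited to new capillaries by PDGF-B from endothelium, sensed by the receptor PDGFR-beta, and are matured by Notch signals, for which Notch3 is the main mural receptor.

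The libraries held between 13943465 and 25195826 counts each. Fast-fibre markers, summed over 12 genes, ran from 159285 to 216458 CPM, the gene's count relative to the TMM-scaled library size, in MCF-10A EV and from 120253 to 146388 CPM in MDA-MB-231 EV, with no overlap. MCF-10A EV replicate 2 stood apart, with the highest CPM of the 9 libraries for 25.6% and the lowest for 27.0% of the tested genes. MDA-MB-231 EV replicate 4 was highest for 12.1% and lowest for 12.2%. MCF-10A EV replicate 1 was low in slow-fibre markers, at 232 CPM summed over 10 genes, against 2417 to 4241 CPM in the other MCF-10A EV libraries. MDA-MB-231 EV replicate 4 was low in them as well, at 837 CPM against 2203 to 4035 CPM in the rest of its group.

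For no mural gene did the difference between the groups pass the test against the spread between libraries. With edgeR's quasi-likelihood test, 0 of the 9 genes had a Benjamini-Hochberg adjusted p under 0.05, beside 0.0% of all tested genes, and the smallest adjusted p among the 9 was 0.357 (Cnn1). At an unadjusted p under 0.05 there was 1, Cnn1, which was higher in MDA-MB-231 EV, beside 5.95% of tested genes higher and 12.8% in either direction. DESeq2 called 0 of the 8 members to which it gave an adjusted p, beside 3.05% of all genes with one. The groups overlapped for all 9 genes, where 5.40% of tested genes had groups that did not overlap. Fitted log2 fold changes, positive where the cancer-line group was higher, were above 0 for 8 of 9, beside 53.1% of tested genes, with a median of 0.34 beside 0.020 over all tested genes. Without TMM scaling of the libraries these medians were 0.48 and 0.15, so the 9 genes lay 0.33 above all genes, against 0.32 with scaling. Several other marker lists also lay mostly above 0, among them endothelium with 18 of 20 (median 0.35) and fibroblasts with 14 of 16 (0.33). Slow-fibre and Schwann cell markers had 10 of 10 each (0.44 and 0.52), adipocyte 9 of 9 (0.54) and tendon 9 of 10 (0.72). At an unadjusted p under 0.05 in edgeR, 10 endothelial, 5 fibroblast and 6 tendon markers were higher, beside 5.95% of tested genes. In the slow-fibre, Schwann cell and adipocyte lists 0 were. Satellite cell and macrophage medians were 0.0083 and 0.14, and 4 of 4 red blood cell genes were below 0 (-0.35). Among satellite cell markers, 2 were lower at an unadjusted p under 0.05. The 12 fast-fibre markers lay on the other side, with 11 below 0, a median of -0.25 and 6 lower at an unadjusted p under 0.05. The part of these lists in the mural values was not tested. Single libraries varied, and Acta2, Myh11, Tagln and Cnn1 were highest in other libraries than the pericyte genes. In whole tissue, a different number of mural cells and a different amount of RNA per cell cannot be told apart.

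Acta2, smooth muscle alpha-actin (ENSMUSG00000035783; mm10, chromosome 19, 34241090 to 34255336, minus strand), was at 57.1, 77.5, 63.2 and 60.8 CPM in MCF-10A EV replicates 1 to 4. The cancer-line replicates 1 to 5 had 51.5, 67.5, 75.0, 131 and 92.4 CPM. Replicates 4 and 5 of the cancer-line group lay above every other library, while replicate 1 lay below every other. MCF-10A EV averaged 64.7 ± 8.93 CPM (SD, n = 4) and the cancer-line group 83.5 ± 30.4 CPM (SD, n = 5; ± after a mean is the SD throughout, and after a log2 fold change the SE). The log2 fold change was 0.37, with a 95% interval from -0.13 to 0.87 (edgeR adjusted p = 0.510).

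Myh11, the smooth muscle myosin heavy chain (ENSMUSG00000018830; chromosome 16, 14194527 to 14291408, minus strand), is the member most restricted to smooth muscle. Its level was 64.3, 84.7, 64.2 and 64.2 CPM in MCF-10A EV, and the cancer-line libraries had 60.1, 77.0, 77.7, 128 and 96.3 CPM. The order of the libraries was close to that of Acta2, with the same 2 cancer-line libraries on top and MCF-10A EV replicate 2 next. Means of 69.4 ± 10.3 and 87.8 ± 25.8 CPM gave a log2 fold change of 0.34, with a 95% interval from -0.08 to 0.76 (edgeR adjusted p = 0.472).

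Tagln, the actin-bundling protein transgelin or SM22-alpha (ENSMUSG00000032085; chromosome 9, 45929628 to 45936058, minus strand), had 51.4, 37.9, 42.0 and 48.0 CPM in MCF-10A EV, against 37.1, 57.9, 55.6, 119.9 and 71.7 CPM in the cancer-line group. Of the 5 cancer-line libraries, 4 lay above all MCF-10A EV libraries and replicate 1 lay below them all. The means were 44.8 ± 6.06 and 68.4 ± 31.3 CPM, a log2 fold change of 0.61 with a 95% interval from -0.02 to 1.24 (edgeR adjusted p = 0.398). In the GENCODE M21 annotation the exons of Tagln overlap the antisense gene Gm48529 over 1241 bases and Pcsk7 over 108 bases on the other strand. Whether counting used strand is not given in the sources used here, so Tagln reads and antisense reads cannot be told apart.

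Cnn1, calponin, which binds actin and slows smooth muscle myosin (ENSMUSG00000001349; chromosome 9, 22099281 to 22109630, plus strand), had the lowest median FPKM of the 9 genes, on 19 to 218 counts. Its values were 2.97, 2.33, 0.766 and 1.84 CPM in MCF-10A EV, against 1.81, 2.41, 3.72, 10.6 and 5.45 CPM in the cancer-line group. The range over all 9 libraries was 13.8-fold, against 1.503-fold to 3.23-fold for the other 8 genes, and the 3 libraries above every MCF-10A EV library were cancer-line replicates 3, 4 and 5. The log2 fold change was 1.3001, with a 95% interval from 0.096 to 2.504, an unadjusted p of 0.0368 and an edgeR adjusted p of 0.357. Without MDA-MB-231 EV replicate 4 it was 0.78, no longer under an unadjusted p of 0.05. The edgeR unadjusted p was also above 0.05, from 0.0604 to 0.0941, when other single libraries were left out. These were MDA-MB-231 EV replicate 5 and MCF-10A EV replicates 2, 3 and 4.

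Mylk, which encodes the myosin light chain kinase of smooth muscle (ENSMUSG00000022836; chromosome 16, 34745210 to 35002420, plus strand), varied less. The MCF-10A EV libraries had 39.7, 53.3, 35.9 and 35.3 CPM, and the cancer-line libraries 36.0, 40.1, 43.7, 55.4 and 54.8 CPM. MCF-10A EV replicate 2 came close to the 2 highest cancer-line libraries, and the log2 fold change was 0.17, with a 95% interval from -0.18 to 0.52 (edgeR adjusted p = 0.684). With 1 library left out it ran from 0.094 without MDA-MB-231 EV replicate 4 to 0.31 without MCF-10A EV replicate 2. Its exons overlap the antisense genes E130310I04Rik over 548 bases and Gm21691 over 224 bases.

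**Figure D1:**
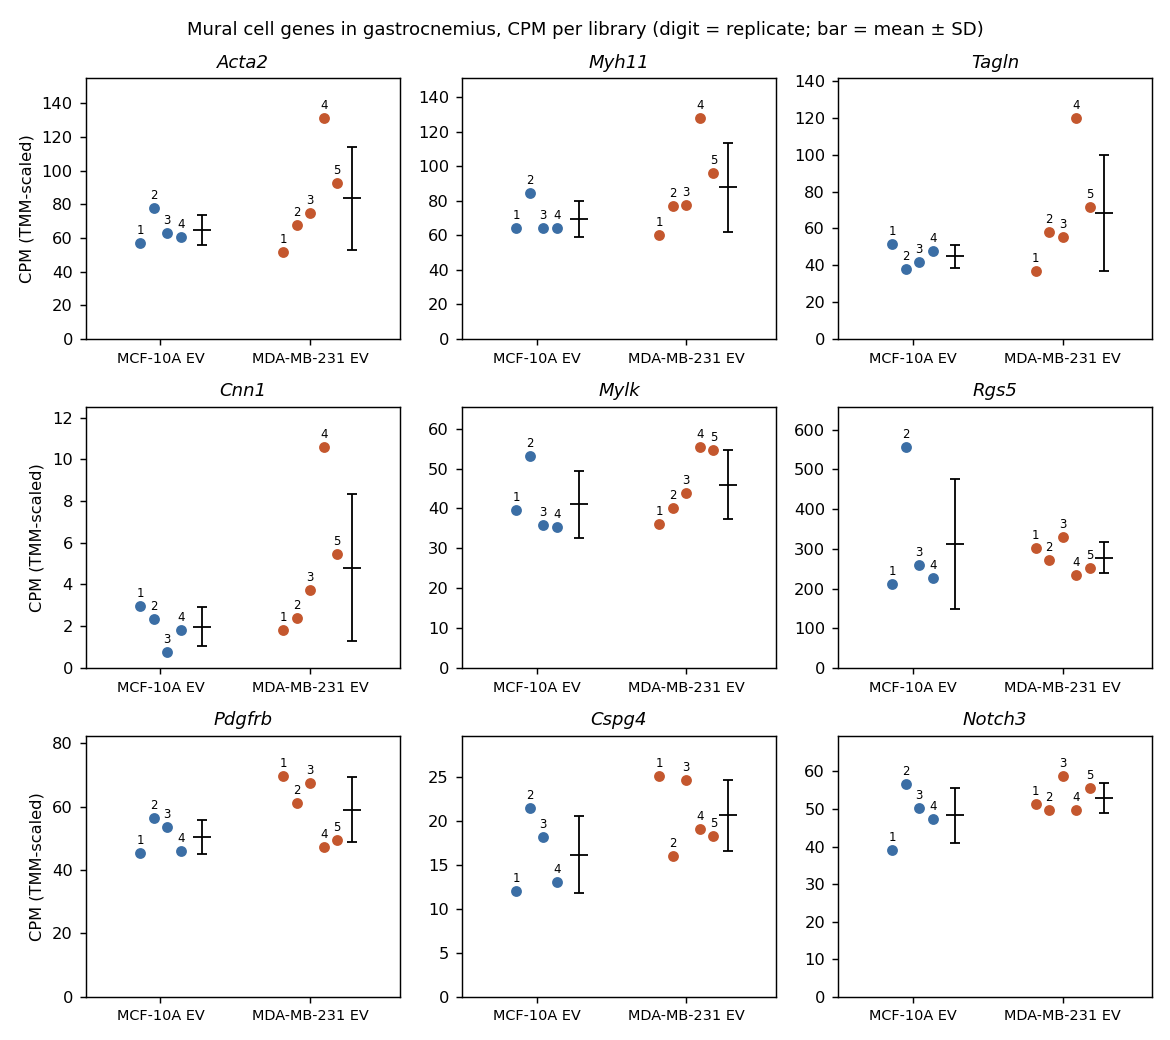
CPM (TMM-scaled) of each of the 9 mural genes on the vertical axis, 1 point per library with its replicate number, MCF-10A EV in blue and MDA-MB-231 EV in orange, and the mean ± SD beside each group. MDA-MB-231 EV replicate 4 is on top for Acta2, Myh11, Tagln, Cnn1 and Mylk, and MCF-10A EV replicate 2 is on top for Rgs5 at 556 CPM.

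Sequence shared with related genes was counted in the transcripts. Of 1986 windows of 50 bases in the longest Acta2 transcript, 7 occurred in transcripts of other genes, among them Actg1, and 0 in the skeletal actin Acta1, which was at 45311 ± 4215 and 41984 ± 3298 CPM. Myh11 shared 0.400% of its windows with other genes, all with Myh9 and Myh10, and Cnn1, Rgs5, Pdgfrb and Cspg4 shared 0. Tagln shared 48.3%, which is its antisense overlap.

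The window from 250 bases before to 50 bases after the RefSeq start (build GRCm38.p6) is printed for 3 genes. They set a contractile gene with near matches to the CArG element beside another contractile gene and the main pericyte gene. Acta2 is at chr19:34255324-34255623, minus strand, Cnn1 at chr9:22099003-22099302, plus strand, and Rgs5 at chr1:169655251-169655550, plus strand. Capitals mark CArG boxes with at most 1 base other than A or T in their middle 6 bases, an element that reads as itself on both strands.
Acta2: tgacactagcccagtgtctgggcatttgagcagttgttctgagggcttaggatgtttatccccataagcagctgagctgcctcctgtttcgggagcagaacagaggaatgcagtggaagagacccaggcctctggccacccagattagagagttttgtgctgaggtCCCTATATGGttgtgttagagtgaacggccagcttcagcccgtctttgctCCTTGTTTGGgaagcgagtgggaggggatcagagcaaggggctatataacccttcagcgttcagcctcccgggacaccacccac
Cnn1: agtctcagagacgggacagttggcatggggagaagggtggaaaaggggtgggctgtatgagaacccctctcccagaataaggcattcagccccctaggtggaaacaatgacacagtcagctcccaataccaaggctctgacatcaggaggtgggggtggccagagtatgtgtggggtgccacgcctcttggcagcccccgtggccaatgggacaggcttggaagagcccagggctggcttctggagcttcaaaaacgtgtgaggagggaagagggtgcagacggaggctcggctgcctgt
Rgs5: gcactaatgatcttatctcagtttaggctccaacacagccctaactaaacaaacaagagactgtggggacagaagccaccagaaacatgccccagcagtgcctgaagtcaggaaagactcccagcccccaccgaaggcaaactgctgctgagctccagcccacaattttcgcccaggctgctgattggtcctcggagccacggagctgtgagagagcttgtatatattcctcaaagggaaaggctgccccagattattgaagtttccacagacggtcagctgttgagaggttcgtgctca
Acta2 held 2 such matches, starting 84 and 34 bases upstream of the RefSeq start, and the second overlaps a TGGGAA, the core read by the Notch effector RBPJ. Each of these CArG matches had 1 departure, and the Acta2 window held 0 without any. The RefSeq start of Acta2 lies upstream of base 34255336, its start in the gene coordinates above, so both matches lie farther from the latter. Of 32817 promoter windows in the table, 9.99% held such a CArG match, 1.63% held one without any departure and 25.6% held TGGGAA on either strand. Cnn1, Mylk, Rgs5, Cspg4 and Notch3 held neither motif in their windows. Windows were examined for 6 of the 9 genes, and those of Myh11, Tagln and Pdgfrb were not examined.

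Rgs5, a regulator that shuts off G-protein signals and a leading pericyte marker (ENSMUSG00000026678; chromosome 1, 169655501 to 169695813, plus strand), had 210.3, 556, 258 and 226 CPM in MCF-10A EV, against 303, 273, 329, 233 and 252 CPM in the cancer-line group. A single library, MCF-10A EV replicate 2, lay far above the other 8, whose levels ran from 210.3 to 329 CPM. The log2 fold change was -0.17, with a 95% interval from -0.75 to 0.41 (edgeR adjusted p = 0.819), and without that library it was 0.26 (edgeR adjusted p = 0.380).

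Pdgfrb, the PDGF-B receptor of mural cells and of fibroblasts (ENSMUSG00000024620; chromosome 18, 61045150 to 61085061, plus strand), had 45.5, 56.4, 53.5 and 46.1 CPM in MCF-10A EV. The cancer-line libraries had 69.6, 61.0, 67.4, 47.2 and 49.5 CPM. Cancer-line replicates 1, 2 and 3 lay above all MCF-10A EV libraries, while replicates 4 and 5, the highest for contractile genes, did not. The means were 50.4 ± 5.43 and 59.0 ± 10.2 CPM, a log2 fold change of 0.23 with a 95% interval from -0.06 to 0.52 (edgeR adjusted p = 0.486).

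Cspg4, the NG2 proteoglycan on the pericyte surface (ENSMUSG00000032911; chromosome 9, 56865104 to 56899870, plus strand), had 12.1, 21.5, 18.2 and 13.1 CPM in MCF-10A EV, against 25.2, 16.1, 24.7, 19.1 and 18.3 CPM in the cancer-line group. Replicates 1 and 3 of the cancer-line group lay above the rest, as for Pdgfrb, and the log2 fold change was 0.35 with a 95% interval from -0.06 to 0.77 (edgeR adjusted p = 0.450).

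Notch3, the mural Notch receptor (ENSMUSG00000038146; chromosome 17, 32120820 to 32166880, minus strand), was the steadiest of the 9, spanning 1.503-fold. Its values were 39.1, 56.7, 50.2 and 47.4 CPM in MCF-10A EV, against 51.3, 49.7, 58.8, 49.8 and 55.5 CPM in the cancer-line group. MCF-10A EV replicate 1 was the lowest library, and replicate 4 of that group also lay below every cancer-line library. Replicates 2 and 3 of that group lay among the cancer-line values. The log2 fold change was 0.13, with a 95% interval from -0.11 to 0.38 (edgeR adjusted p = 0.634). Leaving out MCF-10A EV replicate 1 gave 0.044, and leaving out replicate 2 of that group gave 0.22. The antisense gene Gm17276 overlaps 488 bases of its exons.

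**Figure D2:**
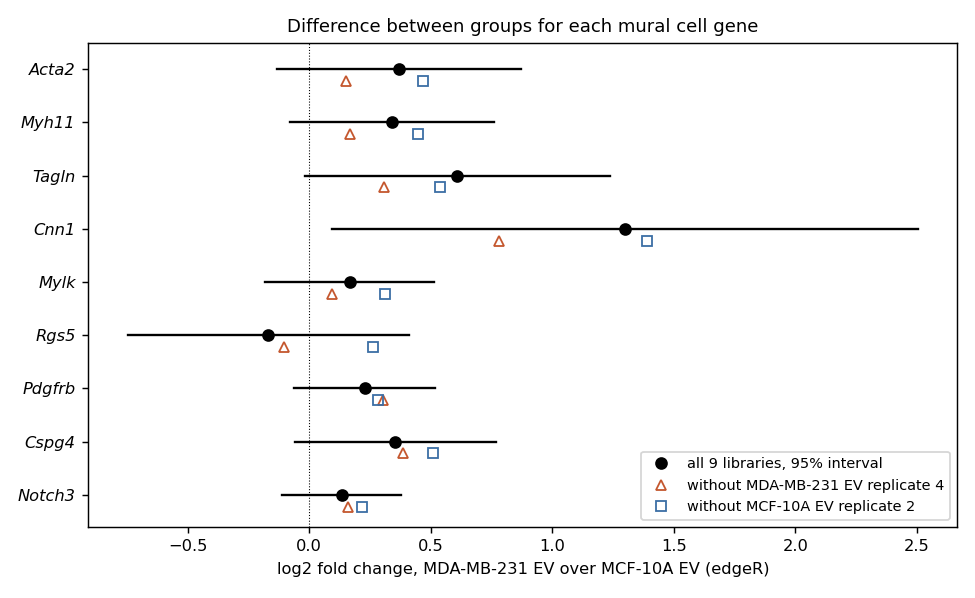
Log2 fold change, positive where MDA-MB-231 EV was higher, on the horizontal axis for each of the 9 genes, with the edgeR estimate and its 95% interval in black and the estimates without MDA-MB-231 EV replicate 4 (triangles) or without MCF-10A EV replicate 2 (squares). Without MDA-MB-231 EV replicate 4, Acta2 moves from 0.37 to 0.15 and Cnn1 from 1.3001 to 0.78, and without MCF-10A EV replicate 2, Rgs5 moves from -0.17 to 0.26.

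The contractile estimates rested on few libraries. Without MDA-MB-231 EV replicate 4 the log2 fold changes of Acta2, Myh11, Tagln and Mylk were 0.15, 0.17, 0.31 and 0.094, and the median of the 5 contractile genes was 0.17 in place of 0.37. With replicates 4 and 5 both left out, an alternative chosen after seeing the data, Acta2 was at 0.0041, Myh11 at 0.050, Tagln at 0.16, Cnn1 at 0.44 and Mylk at -0.033. Pdgfrb moved the other way, to 0.30 without replicate 4 and to 0.40 without both.

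Profiles over the libraries were compared among the 9 genes. After each gene's log2 CPM was centred on its own mean over the 9 libraries, the root mean square difference between Acta2 and Myh11 was 0.080, and each of them was nearest to the other. Tagln was nearest to Acta2 at 0.26, Cnn1 to Tagln at 0.60 and Mylk to Myh11 at 0.15. Among pericyte genes, Pdgfrb and Notch3 were nearest to each other at 0.19, Cspg4 was nearest to Pdgfrb at 0.22 and Rgs5 to Notch3 at 0.31. The single nearest neighbour of each gene was thus of its own class, but the classes were not separate beyond that. Mylk was nearer to all 4 pericyte genes, at 0.23 for Notch3 to 0.39 for Rgs5, than to Tagln at 0.40 or Cnn1 at 0.79. Cnn1 was the farthest of the 8 other genes from both Acta2 and Myh11, at 0.70 and 0.71, and Notch3 was nearer to Mylk than to Rgs5. These are descriptions over 9 libraries that share their scaling.

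The mean centred log2 CPM of Acta2, Myh11, Tagln and Cnn1 was -0.15, -0.13, -0.64 and -0.32 in MCF-10A EV and -0.50, -0.05, 0.13, 1.15 and 0.51 in MDA-MB-231 EV. The same mean over the 4 pericyte genes was -0.41, 0.36, -0.04 and -0.28 in MCF-10A EV and 0.24, -0.02, 0.30, -0.11 and -0.04 in MDA-MB-231 EV. Cancer-line replicate 4, highest in contractile genes, was thus below the average of the 9 in pericyte genes. Replicate 5 was at the average, at -0.04 with Rgs5 and 0.0017 without it, and replicate 1, high in pericyte genes, was low in contractile genes. Contractile minus pericyte means ran from -0.60 to 0.26 in MCF-10A EV and from -0.73 to 1.26 in MDA-MB-231 EV.

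**Figure D3:**
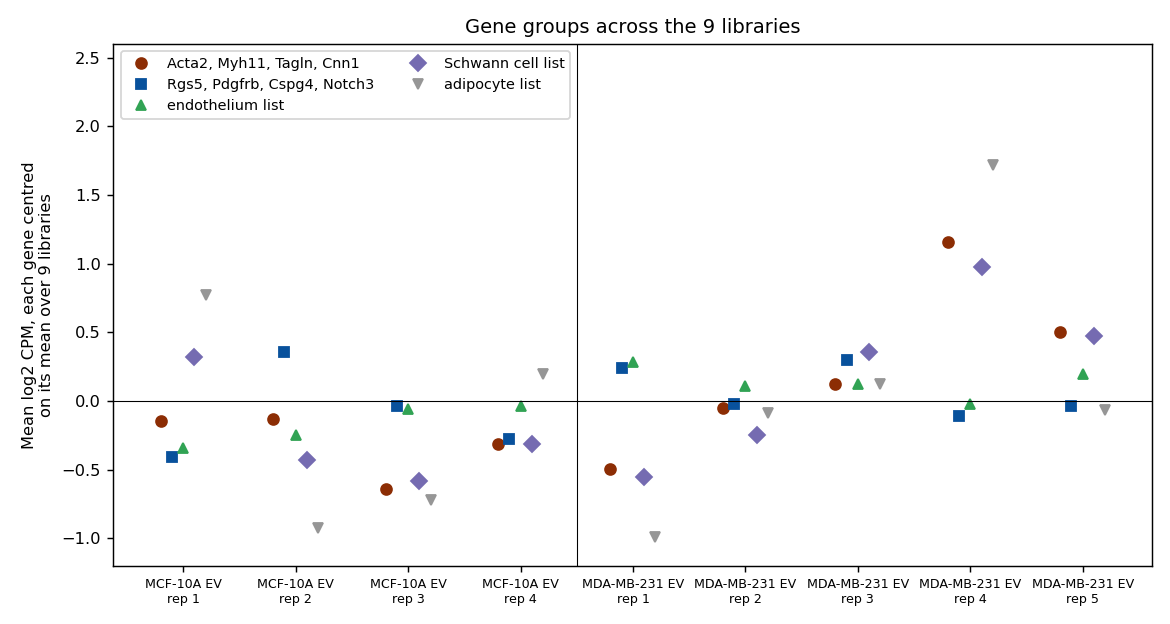
Mean log2 CPM, each gene centred on its mean over the 9 libraries, on the vertical axis, for the contractile genes without Mylk, the pericyte genes and lists of endothelial, Schwann cell and adipocyte markers, 1 point per list in each library on the horizontal axis. In MDA-MB-231 EV replicate 4 the contractile genes stand at 1.15, Schwann cell markers at 0.98 and adipocyte markers at 1.72, while pericyte and endothelial genes stand at -0.11 and -0.02.

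Markers of 2 other cell types were highest in the library that was highest for contractile genes. All 10 Schwann cell markers were tested, and their summed level was 209 to 459.98 CPM in MCF-10A EV and 220.0 to 819 CPM in MDA-MB-231 EV, with the top in replicate 4. All 9 adipocyte markers were tested, summing to 295 to 650.1 CPM and 386 to 939 CPM, again with the top in MDA-MB-231 EV replicate 4. Their part in the contractile values was not tested. Summed over 20 markers, endothelium ran from 998 to 1308 CPM in MCF-10A EV and from 1346 to 1411 CPM in MDA-MB-231 EV, so the sums of the groups did not overlap. The 4 pericyte genes summed to 307 to 691 CPM and to 349 to 480.0 CPM, and the part of endothelium in their values was not tested. The 16 fibroblast markers, of cells that also carry Pdgfrb, summed to 4487 to 7721 CPM and 6113 to 9641 CPM. No marker of these lists was at 0 in all 9 libraries.

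Per length, the deposited FPKM values (counts relative to gene length and library total) ordered the members as Rgs5, Acta2, Tagln, Myh11, Pdgfrb, Notch3, Mylk, Cspg4 and Cnn1, with medians over 9 libraries of 64.9, 40.1, 29.6, 11.8, 9.62, 6.4996, 5.44, 2.40 and 1.08 FPKM. Rgs5 ranked from 1 to 3 within single libraries, Acta2 from 2 to 3 and Tagln from 1 to 3. Tagln reached 79.1 FPKM in MDA-MB-231 EV replicate 4, above Acta2 at 77.0 and Rgs5 at 59.5 FPKM in the same library. Myh11 and Pdgfrb shared ranks 4 and 5, Notch3 and Mylk ranks 6 and 7, and Cspg4 and Cnn1 ranks 8 and 9, so neighbours within each of these pairs changed places between libraries.

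**Figure D4:**
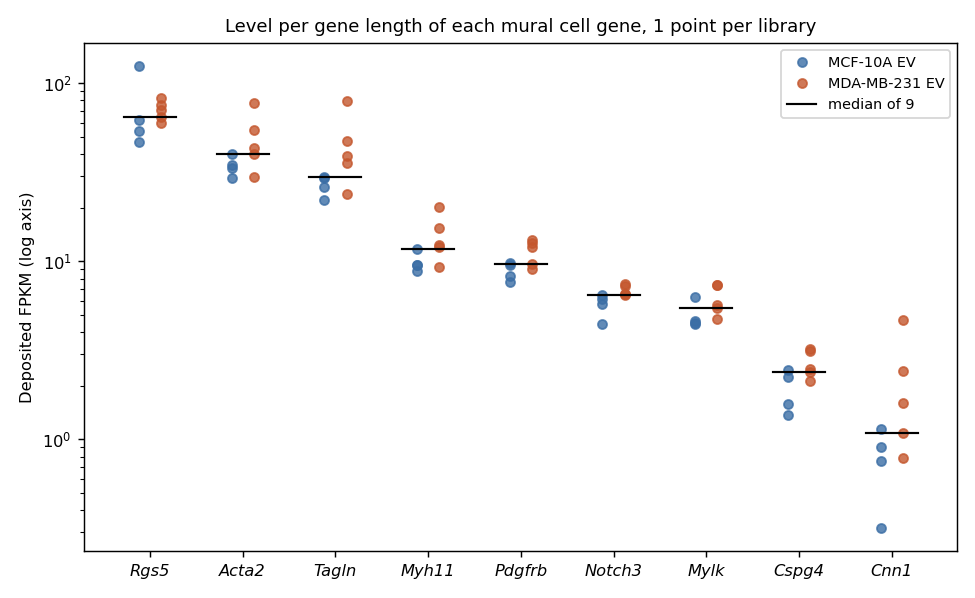
Deposited FPKM (log axis) on the vertical axis for the 9 mural genes in order of their median, 1 point per library, MCF-10A EV in blue and MDA-MB-231 EV in orange, with a bar at the median of 9. Rgs5, Acta2 and Tagln form the top group with medians of 64.9, 40.1 and 29.6 FPKM, and Cnn1 lies lowest at 1.08 FPKM.

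Further genes of the contractile programme, beyond the 5 members, numbered 20, and 16 were above 0, with a median of 0.22, 2 higher and 1 lower at an unadjusted p under 0.05 and 0 called. Myl9, the regulatory light chain that the kinase phosphorylates, was at 41.4, 26.3, 36.8 and 51.4 CPM against 35.4, 43.5, 43.2, 66.5 and 53.0 CPM, highest again in cancer-line replicate 4, with a log2 fold change of 0.31 ± 0.21 (SE). Actg2, the actin of visceral smooth muscle, was near the detection limit on 12 to 96 counts, and its log2 fold change of 0.68 ± 0.60 (SE) turned negative without MDA-MB-231 EV replicate 4. Lmod1, an actin nucleator of smooth muscle, was even, at 43.1 ± 3.78 and 48.0 ± 1.54 CPM, with a log2 fold change of 0.15 ± 0.087. Smtn, smoothelin, was at 89.6 ± 31.3 and 104 ± 23.8 CPM. Synpo2, an actin-binding protein that skeletal fibres also make, was at 1146 ± 278 and 854 ± 80.1 CPM, a log2 fold change of -0.42 ± 0.15, and Mustn1 had one of 0.32 ± 0.13 (edgeR adjusted p = 0.310 and 0.334).

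Of 16 genes that set the phosphorylation of myosin light chains, 12 were above 0, with a median of 0.17 and 0 under an unadjusted p of 0.05. The skeletal kinase Mylk2 was at 888 ± 214 and 788 ± 137 CPM and its relative Mylk4 at 458 ± 192 and 574 ± 263 CPM. Ppp1r12b, a targeting subunit of myosin phosphatase, was at 211 ± 31.5 and 217 ± 17.6 CPM. Myl6, the essential light chain of non-sarcomeric myosin, had a log2 fold change of 0.40 ± 0.19 and the phosphatase subunit Ppp1r12c one of 0.22 ± 0.11 (SE; edgeR adjusted p = 0.397 and 0.420).

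Regulators of the smooth muscle programme had no call in edgeR and 3 calls in DESeq2, all lower in MDA-MB-231 EV (Mrtfa, Mrtfb and Mef2c). DESeq2 called 3.05% of all genes with an adjusted p, 171 lower and 58 higher, so lower was the commoner direction. Of 16 regulators tested in edgeR, 8 were above 0 and 8 below, with a median of -0.0079, 2 higher and 4 lower at an unadjusted p under 0.05. Without MCF-10A EV replicate 1, 6 were above 0 and 10 below, with a median of -0.18. Mrtfa, listed as Mkl1, a myocardin-related coactivator of serum response factor, was at 58.9, 57.8, 58.9 and 45.7 CPM in MCF-10A EV, against 29.0, 40.9, 42.9, 42.9 and 39.8 CPM in the cancer-line group, with no overlap of the groups. Its log2 fold change was -0.50 ± 0.13 (SE; edgeR adjusted p = 0.257; DESeq2 adjusted p = 0.0249). Mrtfb, listed as Mkl2, was at 48.7, 42.8, 34.2 and 35.8 CPM against 31.5, 25.6, 26.2, 28.9 and 28.9 CPM, likewise without overlap, a log2 fold change of -0.51 ± 0.12 (edgeR adjusted p = 0.247; DESeq2 adjusted p = 0.0115). Srf, serum response factor itself, was at 154 ± 44.1 and 119 ± 6.51 CPM, a log2 fold change of -0.37 ± 0.16 (edgeR adjusted p = 0.362) that was 0.0044 without both MCF-10A EV replicates 1 and 2. Skeletal fibres express these 3 genes too, and the source of the transcripts was not tested. Myocd, myocardin, the coactivator special to heart and smooth muscle, did not pass the count filter, with 0 to 6 counts in MCF-10A EV and 4 to 15 counts in MDA-MB-231 EV, the most again in replicate 4.

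Further pericyte genes numbered 24, of which 19 were above 0, with a median of 0.16, 5 higher and 2 lower at an unadjusted p under 0.05 and 0 called in edgeR. Kcnj8 and Abcc9 form the ATP-sensitive potassium channel of mural cells, and skeletal fibres also use Abcc9. Kcnj8 was at 14.6, 14.3, 18.8 and 15.6 CPM against 22.4, 20.9, 22.3, 14.96 and 13.98 CPM, high in the same 3 cancer-line libraries as Pdgfrb, with a log2 fold change of 0.25 ± 0.16. Abcc9 had one of -0.20 ± 0.11. Vtn, vitronectin, a secreted pericyte product, was at 29.1 ± 4.70 and 29.6 ± 2.14 CPM, and the adhesion molecule Mcam at 34.0 ± 6.51 and 39.9 ± 6.23 CPM. Des, desmin, which muscle fibres also make, was at 5218 ± 974 and 4174 ± 327 CPM. Thy1, a surface protein that fibroblasts carry as well, was at 19.6 ± 4.26 and 29.0 ± 3.37 CPM without overlap, a log2 fold change of 0.56 ± 0.15 (edgeR adjusted p = 0.260; DESeq2 adjusted p = 0.0344). Art3 had a log2 fold change of -0.50 ± 0.13 (edgeR adjusted p = 0.260; DESeq2 adjusted p = 0.0308).

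Pdgfb, the ligand of Pdgfrb, did not pass the adjusted test. It was at 24.04, 23.3, 33.7 and 26.9 CPM in MCF-10A EV, against 35.6, 31.6, 36.2, 36.7 and 40.7 CPM in the cancer-line group, with 4 of 5 cancer-line libraries above all MCF-10A EV libraries. Its log2 fold change was 0.42 ± 0.12 (SE; unadjusted p = 0.00504, edgeR adjusted p = 0.260). Of 11 genes of PDGF signalling, 7 were above 0, with a median of 0.078 and 3 higher and 1 lower at an unadjusted p under 0.05. Pdgfra, the receptor of fibro-adipogenic progenitors, had a log2 fold change of 0.078 ± 0.11. Pdgfrl, a receptor-like protein, was at 5.07 ± 0.511 and 8.75 ± 0.993 CPM, without overlap (edgeR adjusted p = 0.187).

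For Notch3, 14 of 16 further ligands, receptors and targets were above 0, with a median of 0.27 and 2 higher at an unadjusted p under 0.05. Jag1, the endothelial ligand that engages mural Notch3, was at 10.9 ± 1.35 and 12.8 ± 1.46 CPM, and the receptor Notch1 at 10.3 ± 1.85 and 12.4 ± 1.98 CPM. The Notch target Heyl was at 14.6, 18.5, 16.8 and 12.9 CPM against 23.6, 18.9, 17.9, 12.1 and 12.0 CPM. It was lowest in cancer-line replicates 5 and 4, which were high in contractile genes, with MCF-10A EV replicate 4 next. A relation to the contractile genes was not tested. The endothelial ligand Dll4 had a log2 fold change of 0.56 ± 0.21 and Mfng, a glycosyltransferase acting on Notch, one of 0.86 ± 0.29 (edgeR adjusted p = 0.326 and 0.294).

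Among 21 other signals of the vessel wall, 14 were above 0, with a median of 0.049, 5 higher and 4 lower at an unadjusted p under 0.05. That median rested on single libraries, being -0.023 without MCF-10A EV replicate 1, where 10 were above 0 and 11 below, and 0.20 without replicate 2. Tgfb1, which promotes smooth muscle differentiation, was at 9.24, 12.1, 9.27 and 8.4999 CPM against 14.5, 12.7, 16.2, 13.1 and 13.6 CPM, without overlap, a log2 fold change of 0.53 ± 0.13 (edgeR adjusted p = 0.252; DESeq2 adjusted p = 0.0221). Its receptor Tgfbr1 was at 29.8 ± 2.88 and 23.2 ± 2.80 CPM, also without overlap, a log2 fold change of -0.36 ± 0.11 (edgeR adjusted p = 0.284). Angpt1, the mural ligand of the endothelial Tie2 receptor, was at 19.1 ± 6.60 and 21.9 ± 4.73 CPM. Of 9 tested relatives of Rgs5, 8 were above 0, with a median of 0.24, among them Rgs4 at 0.36 ± 0.13, Rgs16 at 0.87 ± 0.41 on 3 to 60 counts and Rgs2 at 0.41 ± 0.23 (edgeR adjusted p from 0.324 to 0.471).

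**Figure D5:**
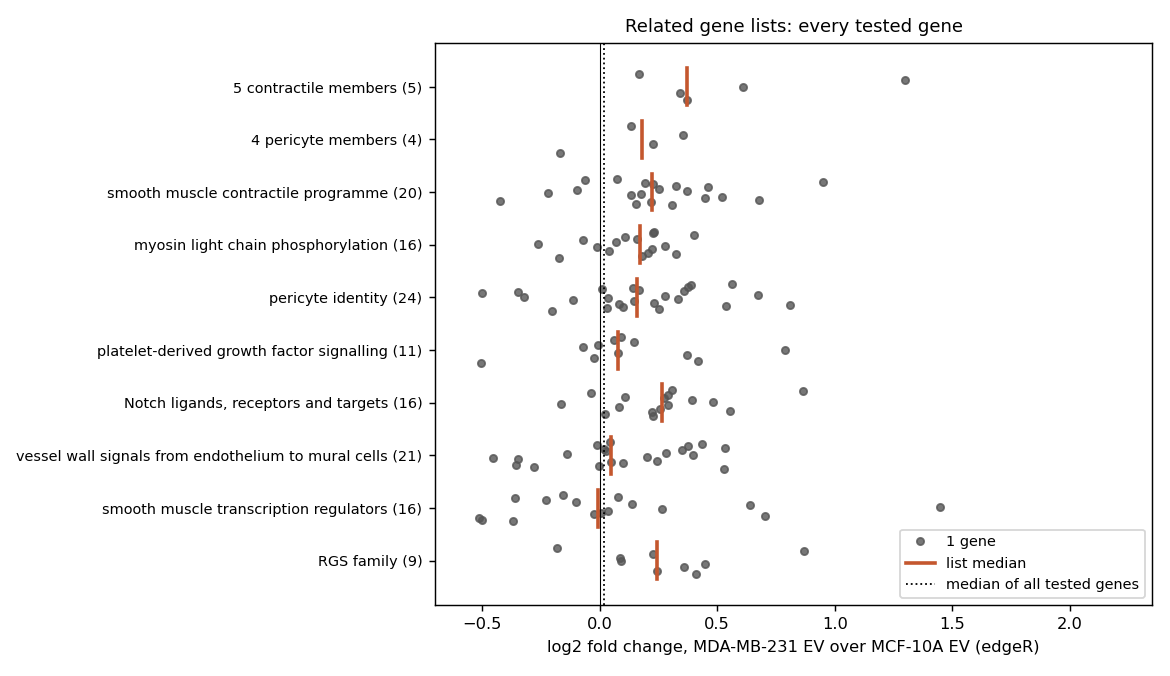
Log2 fold change, positive where MDA-MB-231 EV was higher, on the horizontal axis for every tested gene of the contractile and pericyte members and of 8 related lists, with the number tested in brackets, the list median as an orange bar and the median of all tested genes as a dotted line. Medians run from -0.0079 for the regulators to 0.37 for the 5 contractile members, and single genes of each list scatter on both sides of 0 except for the 5 contractile members.

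The named genes whose profile lay nearest to the mean of the 9 members over the 9 libraries were Actn1, Tuba1b, Ccnd3, Fam129b and Sema3b, with root mean square differences from 0.091 to 0.10 in log2 CPM. Their log2 fold changes ran from 0.27 for Ccnd3 to 0.43 for Sema3b, and edgeR adjusted p values from 0.260 to 0.440. Actn1 encodes a non-muscle actinin that cross-links actin, Tuba1b an alpha-tubulin and Ccnd3 a cyclin. For the contractile genes without Mylk alone, Plekha4, P2rx1, Fads3, Csrp1 and Ncmap were nearest, at 0.15 to 0.19. P2rx1 is an ATP-gated channel of arterial smooth muscle, Csrp1 a smooth muscle LIM protein and Ncmap a myelin protein of Schwann cells. For the 4 pericyte genes, Calu, Fzd8, Mmrn2, Sipa1l2 and Smarca1 were nearest, at 0.077 to 0.094, of which Mmrn2 is an endothelial matrix protein.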

How the data were processed

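Gene counts of 9 libraries, deposited by the authors as whole numbers per gene on mm10, were analysed as deposited. FPKM values, also deposited by the authors, equalled the count scaled by gene length and library total within 0.1% for 100% of 161066 nonzero values. Per the submitters' processing notes, which give no roles, the tools were edgeR, DESeq2, HTSeq 0.6.1, STAR 2.5 and TopHat. The annotation release is not given in the sources used here. The labels do not say that replicates are separate mice, so p-values measure only the spread between these samples, which may be technical. Genes passing filterByExpr (minimum count 10, minimum total count 15) went into edgeR 4.0.16 and its quasi-likelihood test (TMM, robust, group as the term, two-sided, R 4.3.3), adjusted over all 13901 genes, with 0.05 as the threshold. The biological coefficient of variation was 20.2%. Standard errors are the log2 fold change over the root of F. CPM used TMM-scaled library sizes, and log2 CPM a prior count of 2.

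The members and lists were chosen with earlier results of these data known. All members, 21 preset genes of related lists and the 2 genes with the smallest p of each list are named, and the 5 nearest profiles. The nearest profiles of the contractile and pericyte classes were added after the values were seen, as was Acta1. Fits were checked on simulated data. Alternatives were other scalings, filters and dispersions, DESeq2 1.42.0, limma 3.58.1 (voom, and log2(FPKM + 1) or log2(FPKM + 0.1) with trend), a replicate block and libraries left out. Promoters are from RefSeq and overlaps from GENCODE M21, both of GRCm38. Figures used matplotlib 3.10.9 (Python 3.11.15). No per-sample column was left out.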

Additional observations from a re-analysis of the deposited data

Results flagged for a closer look

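In 18 groups of values (9 genes in each of the 2 groups), the extreme library was compared with its neighbour relative to the range, a check that flags about 1 in 20 groups by chance. It marked MCF-10A EV replicate 2 for Rgs5, at 556 CPM where the next library of its group was at 258 CPM, a gap of 0.861 of the range. The same library was marked for Myh11, at 84.7 CPM where the other 3 lay between 64.2 and 64.3 CPM, a gap of 0.994 of the range. That library had the smallest total count, 13943465. The cause of these values was not tested. No library of MDA-MB-231 EV was marked for any of the 9 genes, replicate 4 included.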

How the results depend on the processing

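No mural gene was called under any of 22 alternatives, the smallest adjusted p being 0.202 (Tagln in DESeq2, which gave no adjusted p for Cnn1). The median of the 9 genes stayed above 0 in all of them, from 0.14 to 0.48, and from 0.17 to 0.45 with 1 library left out at a time. DESeq2 called 229 of all genes, and without MCF-10A EV replicate 4 edgeR called 2, against 0 otherwise (1781 at an unadjusted p under 0.05, 827 higher and 954 lower; 2037 and 225 with unscaled libraries, where 6 of the 9 mural genes had an unadjusted p under 0.05). Leaving out 1 library gave 0 to 2 calls, and log2 fold changes of Rgs5 from -0.32 to 0.26. Rgs5 changed sign to 0.074 on log2(FPKM + 1), 0.076 on log2(FPKM + 0.1), 0.26 without MCF-10A EV replicate 2 and 0.20 when replicates 1 and 2 of that group were left out together. Mylk changed to -0.033 without both MDA-MB-231 EV replicates 4 and 5. The cause was not tested. Same-numbered libraries did not deviate together (correlations over genes of -0.299, -0.178, 0.0377 and 0.0798 for numbers 1 to 4). Such correlations cannot show whether these libraries shared a cage or day, and the labels do not say, so pairing is unknown. With the replicate block 0 genes were called and the median of the 9 was 0.26. Depth limits Cnn1 most, on 19 to 218 counts.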

Other observations

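Satellite cell markers summed to 4358 to 6462 CPM in MCF-10A EV and 3809 to 4707 CPM in MDA-MB-231 EV, with Des, at a mean of 5218 and 4174 CPM, among them, and 7 of 8 were tested. Macrophage markers summed to 99.99 to 268 CPM and 176 to 206 CPM, with 9 of 10 analysed. Tendon markers, 10 of 10 tested, summed to 546 to 1327 CPM and 1540 to 1926 CPM. Red blood cell genes, 4 of 5 tested, were highest in MCF-10A EV replicate 2, at 724 CPM against 203 to 457 CPM in the others, the library in which Rgs5 was highest. Relations between these sums and the mural genes were not tested.

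Foxc2, a forkhead factor of vessel development, had a log2 fold change of 1.45 and Tbx18, a factor of pericytes and smooth muscle, one of 0.64, both with an unadjusted p under 0.05 and neither called in edgeR. Of the same list Mef2c, a MADS-box factor of muscle, was on the other side, at -0.36 (edgeR adjusted p = 0.280, DESeq2 adjusted p = 0.0348). Cox4i2 and Ndufa4l2, mitochondrial proteins enriched in pericytes, had log2 fold changes of 0.81 and 0.54, again with an unadjusted p under 0.05 and not called. Their list of 24 further pericyte genes had a median of 0.16, with 5 below 0. Foxc2, Tbx18, Mef2c, Cox4i2 and Ndufa4l2 were named after their values were seen.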
